A study of Homo sapiens with 30 samples.

Results

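Brain endothelial cells exposed to epinephrine were set directly against brain endothelial cells exposed to the complement fragment C5a. The comparison used 6 of the 30 libraries in the deposited count table, 3 from each group, and every gene with an Ensembl identifier that passed a low-count filter, which kept 15908 of 63138 genes. All libraries came from hCMEC/D3, an immortalised human brain microvascular endothelial line that serves as a blood-brain barrier model in culture. The Epinephrine group received 200 nM epinephrine and the C5a group 50 ng/mL C5a, each for 12 h, and the Control group received serum-free medium alone. The EV-Epinephrine and EV-C5a groups were cells of the same line given extracellular vesicles that had been prepared from medium of donor cells treated with epinephrine or C5a, and EV-Control received vesicles of unstimulated cells. The line is 1 established culture, so the results describe this line and not a panel of donors, and the labels do not say whether the 3 libraries of a group came from separate cultures.

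Both agents act on receptors of the G-protein-coupled family, which pass their signal through heterotrimeric G proteins. Beta-adrenergic receptors, the targets of epinephrine most often linked to cyclic AMP, stimulate adenylyl cyclase, and protein kinase A then phosphorylates the transcription factor CREB, which switches on a set of rapidly induced genes. C5a is released when complement component C5 is cleaved, and its main receptor, C5aR1, couples mostly to inhibitory G proteins and is best known for recruiting and activating neutrophils and for activating endothelium.

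Library totals of the 6 libraries ran from 17263206 to 21319005 counts, and 14676 to 15196 genes had at least 10 counts. Levels are given as CPM, read counts relative to each library's size, itself adjusted by edgeR's trimmed-mean factors, and ± marks the SD over n = 3 libraries unless it follows a log2 difference, where it is the standard error. Endothelial markers were present in every library: CDH5, the junctional cadherin of endothelium, stood at 194 ± 12.5 CPM in Epinephrine and 215 ± 5.27 CPM in C5a, and PECAM1 at 228 ± 10.7 and 200.0 ± 7.46. The summed level of the 14 endothelial markers ran from 1100 to 1140 CPM in C5a and from 1230 to 1300 in Epinephrine, against 1460 to 1510 in Control. Leukocyte markers summed to 3.27 to 4.07 CPM in C5a and 3.44 to 4.66 in Epinephrine, with AIF1, LYZ and TYROBP at 0 counts, and astrocyte markers to 3.92 to 5.27 and 3.94 to 5.7 with AQP4, S100B and SLC1A2 at 0. Other marker lists were not near 0. Pericyte and smooth muscle markers summed to 346 to 369 CPM in C5a and 321 to 353 in Epinephrine. Epithelial markers summed to 349 to 361 and 266 to 303, mostly KRT18 at 331 and 260. Neuron markers summed to 37.5 to 42.8 and 36.4 to 47.3. Epinephrine replicate 2 stood apart from its group: the chi-square per gene against replicates 1 and 3 was 12.9 and 10.1, against 5.07 between replicates 1 and 3 and 2.39 to 3.36 among the C5a libraries, and ribosomal protein genes took 3.725% of its counts against 3.088% and 3.07% in the other Epinephrine libraries. Its part in the results was measured by leaving it out.

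Of the 15908 genes, 2714 differed between the 2 groups by edgeR's quasi-likelihood test at a Benjamini-Hochberg adjusted p under 0.05, or 17.1%. There were 1428 higher in epinephrine cells (8.98%) and 1286 lower (8.08%), so the counts were nearly even, but the large differences were not. A log2 difference over 1 was also reached by 316 of them (1.99% of genes tested), 258 higher in epinephrine cells and 58 lower. The same shares were 1.97% for Epinephrine against Control, 2.07% for C5a against Control and 1.95% for EV-Epinephrine against EV-C5a. Without Epinephrine replicate 2 the test called 2939 genes, and 2237 of the 2714 were among them. When libraries were scaled by their total counts only, 44.5% of the called genes were higher, against 52.6% with the trimmed mean. In these bulk libraries, fewer cells carrying a transcript and less of it per cell cannot be told apart. The shares of 8.98% higher and 8.08% lower are the background for every list of the direct comparison below.

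**Figure D1:**
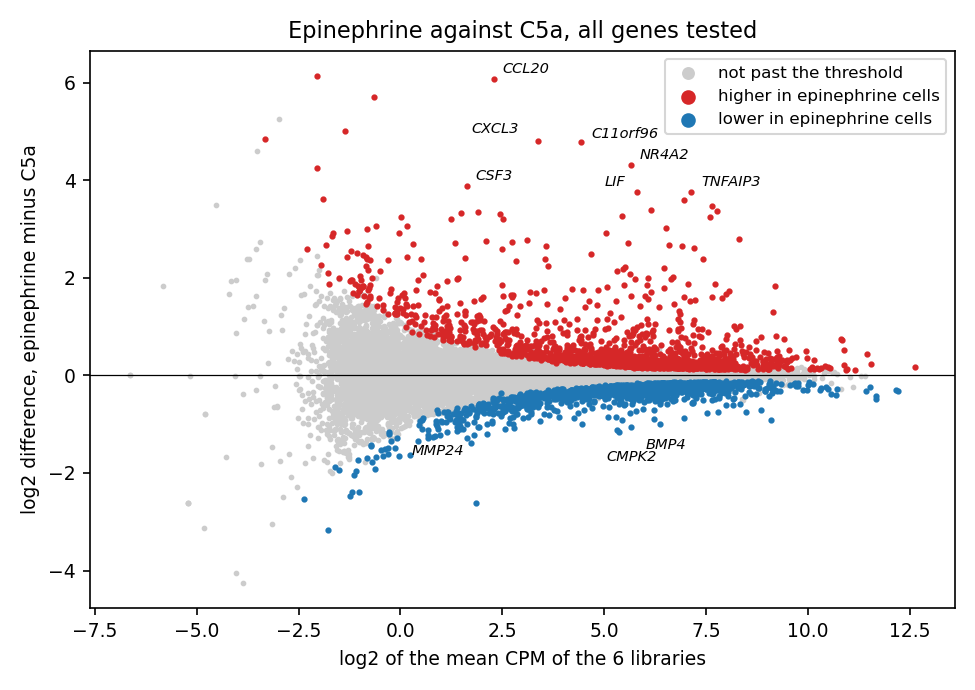
Each point is 1 of the 15908 genes tested. The x axis is the log2 of the mean CPM over the 6 libraries, the y axis is the fitted log2 difference of Epinephrine minus C5a, and colour marks genes past an adjusted p of 0.05 in either direction. The upper side reaches beyond 6 for CCL20, while the most lowered gene named on the plot's lower side, MMP24, stands at -1.21.

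Naming was limited to genes with a symbol whose groups did not overlap and whose higher group averaged 5 CPM or more. The 12 most raised of these were CCL20, CXCL3, C11orf96, NR4A2, CSF3, LIF, TNFAIP3, CXCL2, CXCL8, IL6, NFKBIZ and HEY1, with log2 differences from 6.08 down to 3.35. The list holds 7 secreted cytokines and chemokines, 2 regulators of NF-kappaB, a CREB-induced nuclear receptor and a Notch target gene. Among the 12 most lowered were MMP24, CMPK2, BMP4, JPH2, RIPOR3, RSAD2, ZNF658, ZKSCAN4, IER5L, ZNF530 and TAGLN, from -1.21 to -0.99. Among these are 2 interferon-induced genes, CMPK2 and RSAD2, which overlap each other on opposite strands, a bone morphogenetic protein and an actin-binding protein of contractile cells. The use of strand in counting is not stated, and LIF, TNFAIP3, IL6, C11orf96, MMP24 and TAGLN also overlap a gene on the opposite strand, so reads from the 2 strands cannot be told apart there. CXCL2 and CXCL3 are close paralogs, and reads may be split between them.

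**Figure D2:**
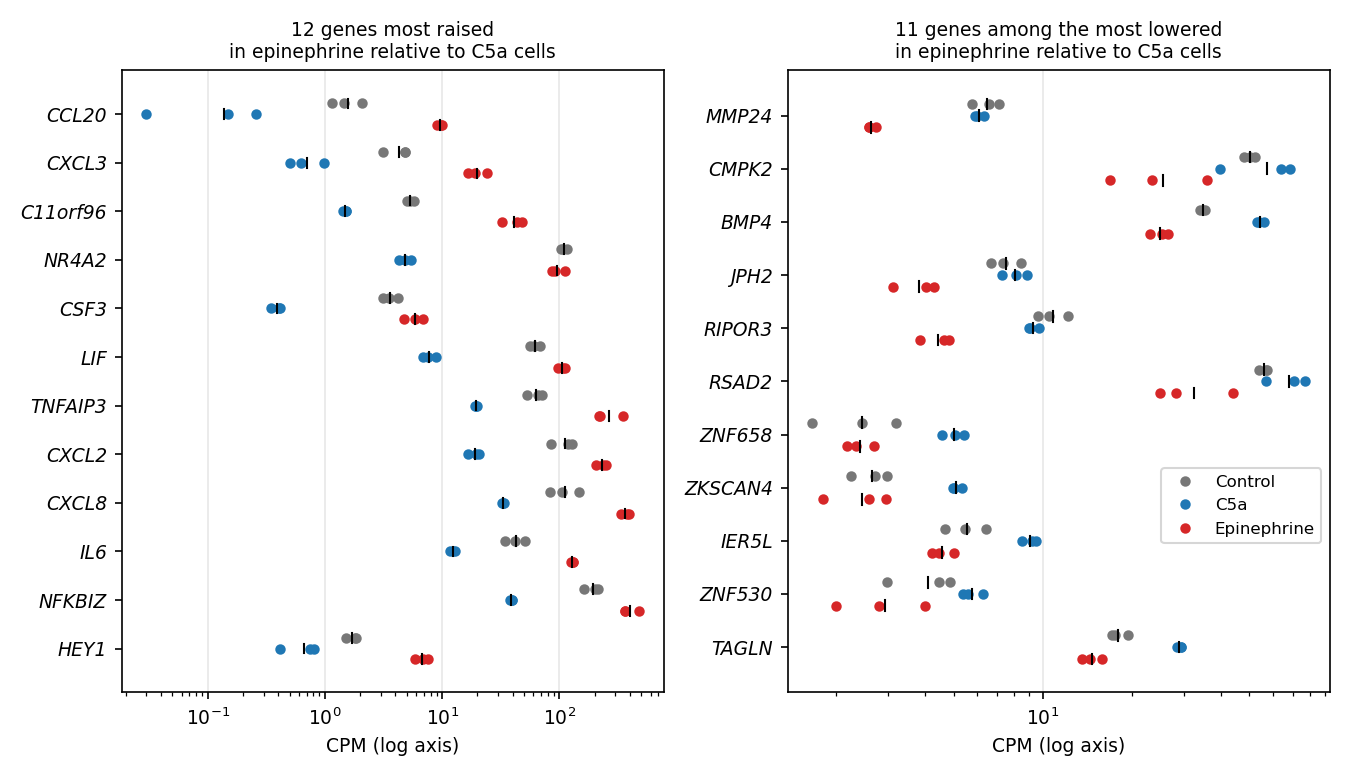
CPM on a log axis for the 12 genes most raised (left) and 11 of the 12 most lowered (right) in Epinephrine relative to C5a. Points are single libraries, vertical bars are group means over n = 3, and the C5a library with 0 counts of CCL20 is drawn at the left end of the axis. On the left the C5a points lie below both other groups for every gene, and on the right the Epinephrine points lie below the C5a points.

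Receptors of the 2 stimuli themselves differed between the groups. C5AR1 (chr19:47290023-47322066), the signalling receptor of C5a, was lower in the cells that had received its own ligand. Its level was 2.49, 1.88 and 2.58 CPM in C5a, 4.35, 5.12 and 4.07 in Epinephrine and 4.15, 4.39 and 5.39 in Control. The C5a libraries lay below all others, while Epinephrine and Control overlapped. The log2 difference of Epinephrine minus C5a was 0.95 ± 0.19 (adjusted p = 0.00032, edgeR), at no more than 52 counts in a C5a library. C5a minus Control was -1.0 and Epinephrine minus Control -0.04, comparisons that share the Control libraries. C5AR2, the second C5a receptor, stayed below the filter with at most 3 counts in a C5a library and was not tested.

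Among adrenergic receptors, ADRA1B and ADRB1 were lower in epinephrine cells. ADRA1B, an alpha-1 receptor that couples to phospholipase C, was at 10.5, 12.9 and 11.9 CPM in Epinephrine, 15.4, 18.1 and 15.7 in C5a and 22.8, 19.6 and 23.0 in Control, the lowest in the epinephrine cells, with a log2 difference of -0.48 ± 0.11 from C5a (adjusted p = 0.00184, edgeR). ADRB1, the beta-1 receptor, was at 6.94, 9.07 and 6.52 CPM in Epinephrine and 10.2, 10.1 and 11.1 in C5a, a log2 difference of -0.49 ± 0.14 (adjusted p = 0.0145, edgeR). The ADRB1 call was lost without Epinephrine replicate 3 (adjusted p = 0.0997) or C5a replicate 3 (0.0681). A further 6 adrenergic receptor genes did not pass the filter.

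**Figure D3:**
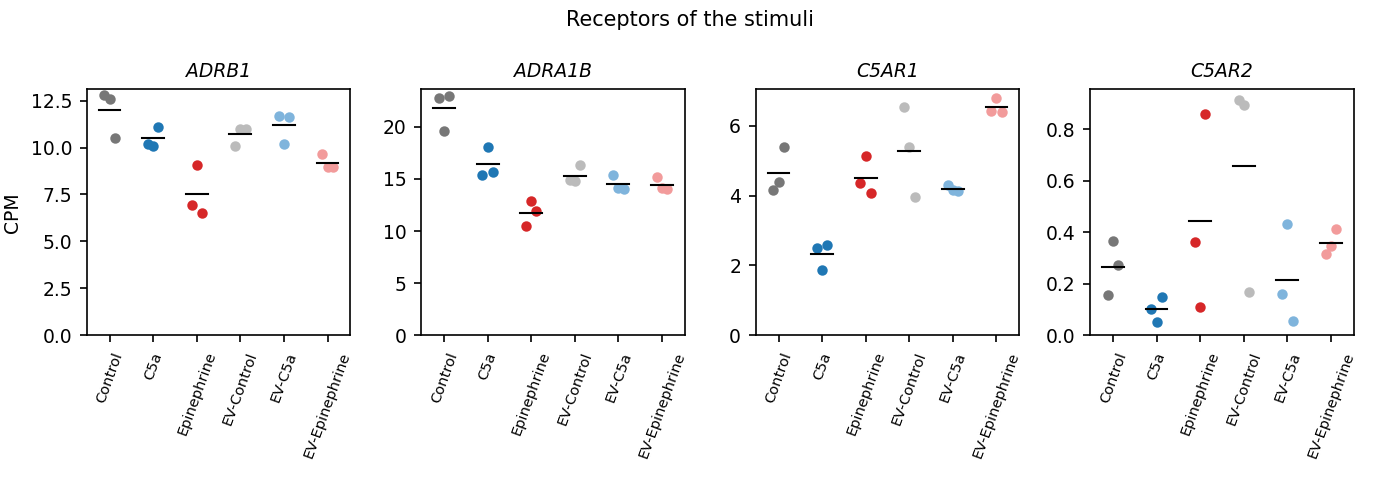
CPM of the receptor genes ADRB1, ADRA1B, C5AR1 and C5AR2 in Control, C5a and Epinephrine and in the 3 vesicle groups. Points are libraries and bars are means over n = 3; each panel has its own linear axis from 0. Among the direct groups, ADRA1B is lowest in Epinephrine and C5AR1 is lowest in C5a.

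Downstream of the receptors, genes of signal coupling differed about as often as all genes, and genes of cyclic AMP handling were more often higher. Among 23 tested genes for G-protein subunits, receptor kinases, arrestins and RGS proteins, 2 were higher and 2 lower, with a median log2 difference of -0.01, near the background of 8.98% and 8.08%. Among them RGS12, which speeds the switching-off of inhibitory G proteins, fell from 32.7 ± 2.65 to 26.2 ± 2.46 CPM, and it alone of the 4 kept its call whichever library was left out. Of 35 tested genes of cyclic AMP synthesis, breakdown and sensing, 8 were higher and 1 lower, against the same background, with a median of 0.01, and without C5a replicate 1 only 5 were higher. The higher ones included PDE4D, a cyclic AMP phosphodiesterase, at 13.9, 13.5 and 14.7 CPM in Epinephrine against 5.44, 7.04 and 6.74 in C5a (log2 difference 1.13 ± 0.13), and PRKAR2B, a regulatory subunit of protein kinase A, at 30 against 19.7 CPM. PDE4D and PRKAR2B were also above Control in the epinephrine cells, by 0.83 and 0.41 in log2 (adjusted p = 7.27e-06 and 0.000455, edgeR). PDE4B, another such phosphodiesterase, was higher than in C5a by 0.80 but below Control, at -0.24 (adjusted p = 0.0024, edgeR).

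The targets of cyclic AMP and CREB, in contrast, were higher almost as a whole. Of 31 listed genes 28 passed the filter, and of these 24 were higher in epinephrine cells and 1 was lower, with a median log2 difference of 1.00 against 0.00 over all genes tested, and 23 and 1 passed without Epinephrine replicate 2. Most of this gap lay in the C5a cells: against Control, 18 of the 28 were lower and 1 higher in C5a (10.8% and 11.8% of all genes), while in Epinephrine 11 were higher and 8 lower (13.5% and 11.8%). The list holds the 3 NR4A orphan nuclear receptors, the kinase SIK1 that restrains CREB coactivators, and the transcription factors ATF3 and FOSB.

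The promoters of the 4 members with the largest differences among those with a CRE half-site are shown because this short element is where CREB-family proteins can bind. Each run is the 250 bases before the transcription start in the RefSeq annotation of GRCh38.p14, written 5′ to 3′ on the strand of the gene, with TGACG or its complement CGTCA in capitals.
NR4A3, chr9:99821635-99821884, plus strand: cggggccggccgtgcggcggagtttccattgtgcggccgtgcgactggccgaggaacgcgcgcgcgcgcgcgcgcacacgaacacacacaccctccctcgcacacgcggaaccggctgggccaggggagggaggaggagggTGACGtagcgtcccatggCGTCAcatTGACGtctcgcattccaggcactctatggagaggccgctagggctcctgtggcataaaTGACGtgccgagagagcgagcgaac
PTGS2, chr1:186680424-186680673, minus strand: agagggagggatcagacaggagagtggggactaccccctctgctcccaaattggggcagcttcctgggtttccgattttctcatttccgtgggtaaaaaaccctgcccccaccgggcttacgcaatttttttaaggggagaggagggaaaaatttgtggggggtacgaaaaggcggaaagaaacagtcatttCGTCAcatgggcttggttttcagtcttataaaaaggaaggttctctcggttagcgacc
FOSB, chr19:45467746-45467995, plus strand: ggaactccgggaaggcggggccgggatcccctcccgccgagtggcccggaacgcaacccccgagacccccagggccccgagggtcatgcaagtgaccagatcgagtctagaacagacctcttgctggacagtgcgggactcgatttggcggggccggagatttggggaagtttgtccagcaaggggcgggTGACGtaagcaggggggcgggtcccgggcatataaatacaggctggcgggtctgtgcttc
SIK1, chr21:43427132-43427381, minus strand: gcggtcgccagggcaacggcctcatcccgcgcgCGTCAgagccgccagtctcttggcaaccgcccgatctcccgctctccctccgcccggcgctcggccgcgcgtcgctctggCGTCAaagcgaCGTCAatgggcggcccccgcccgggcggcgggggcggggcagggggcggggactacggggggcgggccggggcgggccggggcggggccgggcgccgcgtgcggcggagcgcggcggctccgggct

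NR4A3 carried 4 half-sites and SIK1 3, while FOSB had 1, and PTGS2 had 1 in the stretch shown and another after its start. Searching 250 bases before to 50 after each start on both strands, 9 of the 20 raised members with a promoter in the table held TGACG (45.0%), against 34.2% of the 11239 tested genes with a promoter. The full element TGACGTCA, which contains the half-site, was in 2 of the 20 (10.0%) against 3.25%, and the AP-1 element TGAGTCA in 1 (5.0%) against 3.24%. The half-site was as frequent in other groups of raised genes, at 44.4% of 9 NF-kappaB genes, 53.3% of 15 cytokine genes and 58.3% of 12 immediate early genes with a promoter, so its share does not set the cyclic AMP targets apart. A match describes letters in the window and not a bound site.

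NR4A2 (chr2:156324432-156342348) showed the largest difference of these. Its level was 4.78, 5.48 and 4.31 CPM in the C5a libraries, 86.8, 91.4 and 111 in Epinephrine and 117, 104 and 107 in Control, so C5a stood far below and the other 2 groups overlapped. The log2 difference of Epinephrine minus C5a was 4.31 ± 0.17 (adjusted p = 1.33e-09, edgeR), and that of Epinephrine minus Control was -0.18 (adjusted p = 0.309). NR4A1 stood at 23.4, 27.7 and 28.1 CPM in C5a and 161, 151 and 192 in Epinephrine (log2 difference 2.67), and NR4A3 at 1.58, 0.731 and 0.694 in C5a and 8.44, 7.85 and 13.4 in Epinephrine (3.31). For NR4A1 and NR4A3 too, the Epinephrine minus Control value did not pass the test (-0.15 and -0.29).

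SIK1 (chr21:43414483-43427189) was lowered by both agents, and more by C5a. It stood at 145, 139 and 140.0 CPM in Control, 63.0, 76.2 and 76.4 in Epinephrine and 16.9, 16.1 and 14.4 in C5a, with no overlap between any pair of groups. Epinephrine minus C5a was 2.19 ± 0.077 in log2 (adjusted p = 8.41e-22, edgeR). SIK1 has a near-identical copy in the genome, so its counts are uncertain. PTGS2, the inducible cyclooxygenase of prostaglandin synthesis, was low throughout, at 0.204, 0.209 and 0.248 CPM in C5a and 2.75, 1.0 and 1.4 in Epinephrine, a log2 difference of 2.93 ± 0.38 (adjusted p = 3.35e-07, edgeR) that rests on at most 5 counts in a C5a library. BTG2, an antiproliferative gene, was the 1 member that fell, from 77.1 ± 2.79 CPM in C5a to 54.6 ± 6.27 in Epinephrine.

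Immediate early genes, which respond within minutes to many signals, followed the same direction in part. Of 32 tested, 20 were higher and 3 lower, with a median log2 difference of 0.51, and without Epinephrine replicate 2 the counts were also 20 and 3. Against Control, 9 were higher and 9 lower in Epinephrine (13.5% and 11.8% of all genes). In C5a, 6 were higher and 21 lower (11.8% and 10.8% of all genes). ATF3 stood at 40.9, 34.4 and 35.2 CPM in C5a, 293, 342 and 410.0 in Epinephrine and 272, 189 and 220.0 in Control. MAFF, a small Maf protein, stood at 31.7, 30.9 and 32.7 CPM in C5a, 131, 148 and 158 in Epinephrine and 236, 213 and 226 in Control. ATF3 was thus lowest in C5a and highest in Epinephrine, while MAFF in the epinephrine cells remained below Control (-0.63 in log2). FOSB varied within groups, from 30, 39.9 and 28.4 CPM in C5a to 153, 207 and 257 in Epinephrine and 178, 77.3 and 95.7 in Control (log2 difference 2.65 ± 0.41, adjusted p = 0.00103, edgeR), and it overlaps ERCC1 on the opposite strand. EGR3 rose from 0.186 to 1.83 CPM, at no more than 5 counts in a C5a library.

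Genes of the MAP kinase feedback list split. Of 22 tested, 7 were higher and 5 lower, with a median of 0.05, and 3 were lower without Epinephrine replicate 2 or C5a replicate 1 and 2 without C5a replicate 3. SPRY4, an inhibitor of receptor tyrosine kinase signalling, was at 7.99, 6.42 and 8.82 CPM in C5a, 58.6, 50.2 and 67.1 in Epinephrine and 50.8, 42.7 and 47.1 in Control, a log2 difference of 2.92 ± 0.13 between the stimuli. DUSP5, a nuclear phosphatase of ERK, stood at 254 CPM in C5a, 911 in Epinephrine and 1090 in Control, and DUSP6, its cytoplasmic counterpart, at 55.8, 154 and 117. ERRFI1, an inhibitor of the EGF receptor, was above Control in Epinephrine (0.72) and below it in C5a (-0.29). The lowered members differed little: DUSP16 was lower than in C5a by 0.35 and ETV5, a transcription factor and not an inhibitor, by 0.34 in log2. For DUSP16 and ETV5, C5a stood above Control (0.405 and 0.26), while Epinephrine minus Control did not pass the test (0.055 and -0.077). The ETV5 call was lost without C5a replicate 3 (adjusted p = 0.0578, edgeR).

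Among NF-kappaB pathway genes, 10 of 23 tested were higher and 1 lower, with a median log2 difference of 0.19. The 3 largest differences belonged to regulators that NF-kappaB itself induces. NFKBIA (chr14:35401511-35404749), which encodes the inhibitor IkappaB-alpha, was at 296, 278 and 329 CPM in Control, 78.5, 81.3 and 78.8 in C5a and 460.0, 569 and 638 in Epinephrine. All C5a libraries lay below Control and all Epinephrine libraries above it, with a log2 difference of 2.81 ± 0.12 between the stimuli (adjusted p = 1.59e-08, edgeR). TNFAIP3, the ubiquitin-editing enzyme A20, followed with 19.5, 19.2 and 20 CPM in C5a and 216, 222 and 351 in Epinephrine (log2 difference 3.75 ± 0.22), and NFKBIZ with 39.3, 39.7 and 37.7 in C5a and 363, 360.0 and 479 in Epinephrine (3.37). The DNA-binding subunits RELA and NFKB1, chosen after their values were seen, did not pass the test, with log2 differences of 0.04 and -0.05. The 1 lowered gene, IKBKB, a kinase of the pathway, differed by -0.16, and its call was lost without Epinephrine replicate 3, C5a replicate 1 or C5a replicate 2 (adjusted p = 0.182, 0.135 and 0.199, edgeR).

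The promoters of NFKBIA and CXCL2, chosen after their values were seen, are shown because both hold the letters of an NF-kappaB element close before the start. They are printed as above, with the match to GGG, any 2 bases and TTTCC, read on either strand, in capitals.
NFKBIA, chr14:35404750-35404999, minus strand: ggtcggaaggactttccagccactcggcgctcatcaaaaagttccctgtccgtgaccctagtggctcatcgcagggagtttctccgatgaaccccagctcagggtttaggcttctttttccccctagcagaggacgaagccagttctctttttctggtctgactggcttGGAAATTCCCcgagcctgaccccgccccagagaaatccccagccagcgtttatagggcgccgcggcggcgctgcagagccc
CXCL2, chr4:74099196-74099445, minus strand: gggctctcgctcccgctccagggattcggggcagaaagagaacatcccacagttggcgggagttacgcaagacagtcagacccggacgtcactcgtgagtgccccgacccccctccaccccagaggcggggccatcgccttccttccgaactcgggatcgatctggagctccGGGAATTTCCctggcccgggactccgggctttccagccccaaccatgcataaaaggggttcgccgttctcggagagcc

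These letters were found in 6 of the 7 most raised genes with a promoter in the table (85.7%), in 5 of the 9 raised NF-kappaB genes (55.6%) and in 7 of the 15 raised cytokine genes (46.7%), against 2.17% of the 11239 tested genes with a promoter. The 3 groups of genes share members and were picked by their differences in these data. List members that were not raised were not counted, so the shares do not set raised members apart from the others. As above, a match is not a bound site. None of the 20 raised cyclic AMP targets with a promoter held them.

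Cytokine and chemokine genes made up 7 of the 12 most raised genes. Of 36 listed, 31 passed the filter, and of these 19 were higher in epinephrine cells and 1 was lower, with a median log2 difference of 0.99, and 18 and 1 passed without Epinephrine replicate 2. Against Control, 16 were higher and 4 lower in Epinephrine (13.5% and 11.8% of all genes). In C5a, 1 was higher and 16 lower (11.8% and 10.8% of all genes). IL6, an acute-phase cytokine (chr7:22725884-22732002), was at 42.2, 34.1 and 50.9 CPM in Control, 12.8, 12.3 and 11.7 in C5a and 132, 130.0 and 125 in Epinephrine. The 3 groups were separate, with C5a lowest, and Epinephrine minus C5a was 3.40 ± 0.18 in log2, or 10.5-fold (adjusted p = 1.6e-07, edgeR). CXCL8, the main neutrophil chemoattractant (chr4:73740506-73743716), behaved alike, at 106, 83.8 and 146 CPM in Control, 33.9, 32.4 and 32.8 in C5a and 333, 374 and 391 in Epinephrine (log2 difference 3.47 ± 0.2, 11.1-fold).

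Further neutrophil chemoattractants and growth factors showed the same order. CXCL2 was at 20.7, 19.4 and 16.7 CPM in C5a and 204, 250 and 235 in Epinephrine, and CXCL3 at 0.509, 0.626 and 0.992 in C5a and 16.5, 19.1 and 24.1 in Epinephrine. LIF, a cytokine of the IL-6 family that is also a CREB target, was at 6.87, 8.92 and 7.54 CPM in C5a, 111, 98.0 and 107 in Epinephrine and 68.6, 56.6 and 60.6 in Control. Its log2 difference between the stimuli was 3.76 ± 0.13 (adjusted p = 3.68e-11, edgeR). CSF3, the granulocyte colony-stimulating factor, was low in all groups, at 0.407, 0.417 and 0.347 CPM in C5a and 4.77, 5.84 and 6.88 in Epinephrine. CCL20, the ligand of CCR6 on lymphocytes and dendritic cells, had the largest fitted value of the 12, 6.08 ± 0.3, from 0, 0.261 and 0.149 CPM in C5a to 9.84, 9.07 and 9.96 in Epinephrine. The C5a libraries held at most 5 counts of CCL20, 1 of them none, so the size of that difference is imprecise.

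CCL2, a monocyte chemoattractant, differed less, at 18.2, 17.1 and 20.9 CPM in C5a and 28.7, 39.4 and 34.6 in Epinephrine (0.87 ± 0.14). The 1 lowered member was CXCL11, a chemokine induced by interferon, which stood at 1.48, 0.783 and 1.09 CPM in C5a and 0.311, 0.445 and 0.407 in Epinephrine (log2 difference -1.51 ± 0.37, adjusted p = 0.0028, edgeR). C11orf96, a gene of little known function, was at 5.29, 5.74 and 5.06 CPM in Control, 1.53, 1.51 and 1.44 in C5a and 32.2, 43.8 and 48.1 in Epinephrine.

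Adhesion molecules that hold leukocytes on endothelium were partly higher in epinephrine cells. Of 15 tested, 8 were higher and 1 lower, with a median of 0.15, but 3 were higher without C5a replicate 2, and 5 without C5a replicate 3 or Epinephrine replicate 3. ICAM1 was at 87.5, 83.4 and 87.4 CPM in C5a, 125, 132 and 190.0 in Epinephrine and 144, 137 and 134 in Control, so Epinephrine overlapped Control and C5a lay below both (Epinephrine minus C5a was 0.79 ± 0.13 in log2). VCAM1, the integrin ligand that captures monocytes and lymphocytes, rose from 9.26, 8.3 and 9.47 to 11, 17.0 and 28.7 CPM, with replicate 3 of Epinephrine the highest (1.09 ± 0.3, adjusted p = 0.0287, edgeR). The VCAM1 call was lost when any 1 of the C5a libraries was left out (adjusted p = 0.0755 to 0.0906, edgeR), and its log2 difference was 0.63 without Epinephrine replicate 3. SELE, the endothelial selectin, was scarce, at 0.712, 0.365 and 0.297 CPM in C5a and 1.3, 1.45 and 4.39 in Epinephrine, again highest in replicate 3, without which its log2 difference was 1.57 instead of 2.40. CD44, a hyaluronan receptor, was at 204 ± 4.77 and 289 ± 3.06.

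Relative to C5a, genes of vessel growth and the Notch pathway were among the larger groups of raised genes. Of 28 tested, 15 were higher and 3 lower, with a median log2 difference of 0.35, and 12 and 3 passed without Epinephrine replicate 2. Against Control, 7 were higher and 8 lower in Epinephrine (13.5% and 11.8% of all genes). In C5a, 2 were higher and 13 lower (11.8% and 10.8% of all genes). HES1, a repressor that Notch induces, was at 434, 381 and 394 CPM in Control, 85.4, 80.9 and 104 in C5a and 332, 350.0 and 310.0 in Epinephrine, a log2 difference of 1.88 ± 0.1 between the stimuli, with -2.16 for C5a minus Control and -0.29 for Epinephrine minus Control. HEY1, a second such repressor, was scarce but separate in all groups, at 0.814, 0.417 and 0.744 CPM in C5a, 1.51, 1.83 and 1.82 in Control and 5.85, 6.84 and 7.61 in Epinephrine (3.35 ± 0.25). HBEGF, a ligand of the EGF receptor, and ANGPTL4, a secreted inhibitor of lipoprotein lipase, each differed by 1.98 in log2. HBEGF was at 21.9 CPM in C5a, 86.7 in Epinephrine and 71.2 in Control, and ANGPTL4 at 40, 158 and 71.6. ANGPT2, which loosens the endothelial lining, stood at 3.84 ± 0.687 CPM in C5a and 2.39 ± 0.581 in Epinephrine, and its call was lost without Epinephrine replicate 1, Epinephrine replicate 3 or C5a replicate 3 (adjusted p = 0.0583, 0.0845 and 0.102, edgeR).

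In coagulation and fibrinolysis, 13 of 25 tested genes were higher and 2 lower (median 0.28). F3, tissue factor, which starts coagulation, was at 11.6, 10.5 and 12.0 CPM in Control, 7.33, 9.34 and 8.08 in C5a and 24.1, 22.2 and 27.7 in Epinephrine, with no overlap between Epinephrine and the other 2 groups and a log2 difference of 1.58 ± 0.11 from C5a (adjusted p = 3.26e-14, edgeR). THBD, thrombomodulin, chosen after its values were seen, which turns thrombin towards anticoagulant activity, differed by 0.24, from 38.8 ± 1.45 to 45.9 ± 2.45 CPM. F2RL3, the thrombin receptor PAR4, was below Control with both agents, at 0.49 CPM in C5a and 1.32 in Epinephrine against 4.32. GAS6, a vitamin K-dependent ligand of TAM receptors, fell from 90.4 ± 3.99 to 64.4 ± 5.14 CPM.

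Interferon-stimulated genes ran the opposite way. Of 36 tested, 24 were lower in epinephrine cells and 3 higher, with a median log2 difference of -0.40, and 25 were lower without Epinephrine replicate 2. Against Control, 20 were lower and 3 higher in Epinephrine (11.8% and 13.5% of all genes). In C5a, 2 were lower and 5 higher (10.8% and 11.8% of all genes). MX1, a GTPase that blocks influenza and other viruses (chr21:41420304-41459214), was at 581, 555 and 595 CPM in Control, 773, 625 and 737 in C5a and 312, 354 and 470.0 in Epinephrine. The Epinephrine libraries lay below all others although replicate 3 came closest to Control, and the log2 difference was -0.91 ± 0.13 (adjusted p = 0.000539, edgeR), or 1.88-fold lower.

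RSAD2, the antiviral enzyme viperin, was at 77.2, 56.9 and 70.6 CPM in C5a and 25.0, 28.2 and 44.0 in Epinephrine (log2 difference -1.06 ± 0.18), and CMPK2, its neighbour on the opposite strand, at 68.6, 39.9 and 63.8 in C5a and 16.9, 23.5 and 36.0 in Epinephrine (-1.16 ± 0.25). In both genes Epinephrine replicate 3 was again the highest of its group. The CMPK2 call was lost when only the 2 groups compared were fitted (adjusted p = 0.0979, edgeR). MX2 showed 110.0, 80.8 and 103 CPM in C5a and 39.7, 49.2 and 67.8 in Epinephrine, and the signal transducer STAT2, chosen after its values were seen, fell by 0.43 on the log2 scale. IRF1, a transcription factor of the same list that NF-kappaB also induces, went the other way, at 44.0, 39.4 and 39.2 CPM in C5a, 76.6, 79.8 and 117 in Epinephrine and 40.4, 38.4 and 46.1 in Control (1.16 ± 0.15).

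Among genes of glucose and fuel use, 7 of 29 were higher and 2 lower, with a median of 0.05. PDK4 (chr7:95583499-95596491), a kinase that inhibits pyruvate dehydrogenase, had the largest difference of this group. Its level was 82.2, 72.4 and 68.4 CPM in Control, 19.9, 21.4 and 18.8 in C5a and 160.0, 144 and 186 in Epinephrine. Each C5a library lay below Control and each Epinephrine library above it, and the difference was 3.03 ± 0.1 in log2, or 8.15-fold (adjusted p = 3.44e-14, edgeR). TXNIP, which restrains glucose uptake, was lower in epinephrine cells, at 89.6, 86.6 and 88.2 CPM against 166, 152 and 166 in C5a and 157, 160.0 and 172 in Control (-0.87 ± 0.05), and C5a minus Control was -0.01 (adjusted p = 0.874, edgeR). SLC2A3, the glucose transporter GLUT3, was at 22.4 CPM in C5a, 43.0 in Epinephrine and 44.1 in Control.

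Genes of cholesterol synthesis and uptake were lower by small amounts. Of 28 tested, 16 were lower and 2 higher, with a median of -0.18, and 18 were lower without Epinephrine replicate 2. LSS, lanosterol synthase, fell from 174 ± 3.78 CPM in C5a to 130.0 ± 7.04 in Epinephrine (-0.41 ± 0.048).

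Of 26 genes of the endoplasmic reticulum stress response, 13 were higher and 0 lower (median 0.14). XBP1, its central transcription factor, was at 78.1 ± 2.6 CPM in C5a and 147 ± 15.1 in Epinephrine (0.92 ± 0.059), and HSPA5, the chaperone BiP, at 724 ± 5.84 and 938 ± 42.9 (0.37). Among 32 ATF4-driven genes, 10 were higher and 1 lower, led by SLC7A11, the cystine transporter, at 320.0 ± 6.36 and 521 ± 64.6 CPM (0.70 ± 0.057). Of 16 clock genes 6 were higher and 0 lower than in C5a. Against Control, 1 was higher and 5 lower in Epinephrine (13.5% and 11.8% of all genes). In C5a, 1 was higher and 9 lower (11.8% and 10.8% of all genes). BHLHE40, a repressor of the clock, stood at 39.9, 45.1 and 39.1 CPM in C5a, 235, 241 and 287 in Epinephrine and 242, 209 and 240.0 in Control. PER1, also a CREB target, stood at 117, 118 and 114 CPM in C5a, 234, 198 and 240.0 in Epinephrine and 400.0, 388 and 358 in Control. BHLHE40 in Epinephrine overlapped Control, while PER1 in Epinephrine lay between C5a and Control.

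Genes of the barrier itself differed by small amounts. Of 35 tested junction and transporter genes, 10 were higher and 3 lower, a median of 0.06, and 13 and 1 passed without Epinephrine replicate 2, with 1 lower also without C5a replicate 3. CLDN5, the chief claudin of the blood-brain barrier, was at 50.1, 46.2 and 43.5 CPM in Control, 19.2, 18.5 and 19.4 in C5a and 21.5, 27.5 and 26.4 in Epinephrine. Both agents thus left CLDN5 below Control, and epinephrine cells held slightly more of it than C5a cells (0.40 ± 0.092, adjusted p = 0.00167, edgeR). OCLN and the efflux pump ABCB1 did not pass the test, at log2 differences of -0.18 ± 0.11 and 0.04 ± 0.047. TJP1 (-0.19) and CDH5 (-0.15) passed narrowly, with adjusted p = 0.0333 and 0.0247 (edgeR), and without Epinephrine replicate 2 these were 0.157 and 0.0722. Leaving out C5a replicate 2 or 3 also ended the TJP1 call (0.104 and 0.129), and leaving out Epinephrine replicate 1, C5a replicate 1 or C5a replicate 3 the CDH5 call (0.0544, 0.096 and 0.101). TFRC, the transferrin receptor that carries iron into the brain, was at 260.0 ± 10.4 CPM in C5a and 398 ± 21.2 in Epinephrine. CLDN11 was at 302 ± 4.87 CPM in C5a and 225 ± 5.68 in Epinephrine, both above Control at 191 ± 10.7.

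Lists of vesicle biogenesis, matrix and the cell cycle had medians near 0, and the mitochondrial transcripts were lower. Over all genes 8.98% were higher and 8.08% lower. Of 36 genes of vesicle biogenesis 5 were higher and 2 lower (median 0.02), with ANXA1, an annexin, the largest at 0.48. Of 32 matrix genes 10 were higher and 5 lower (median 0.01), among them TIMP1, a protease inhibitor, at 134 ± 4.03 CPM in C5a and 203 ± 22.6 in Epinephrine. Of 36 cell cycle genes 5 were higher and 6 lower (median -0.05), with 10 lower without Epinephrine replicate 2 and 3 higher without Epinephrine replicate 3 or C5a replicate 3. The 13 protein-coding genes of the mitochondrial genome had a median of -0.28, with 8 lower and 0 higher, or 5 lower without Epinephrine replicate 2. Mitochondrial genes took 2.495% to 2.587% of counts in C5a and 1.975% to 2.091% in Epinephrine, and whether this share bears on other groups was not tested.

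**Figure D4:**
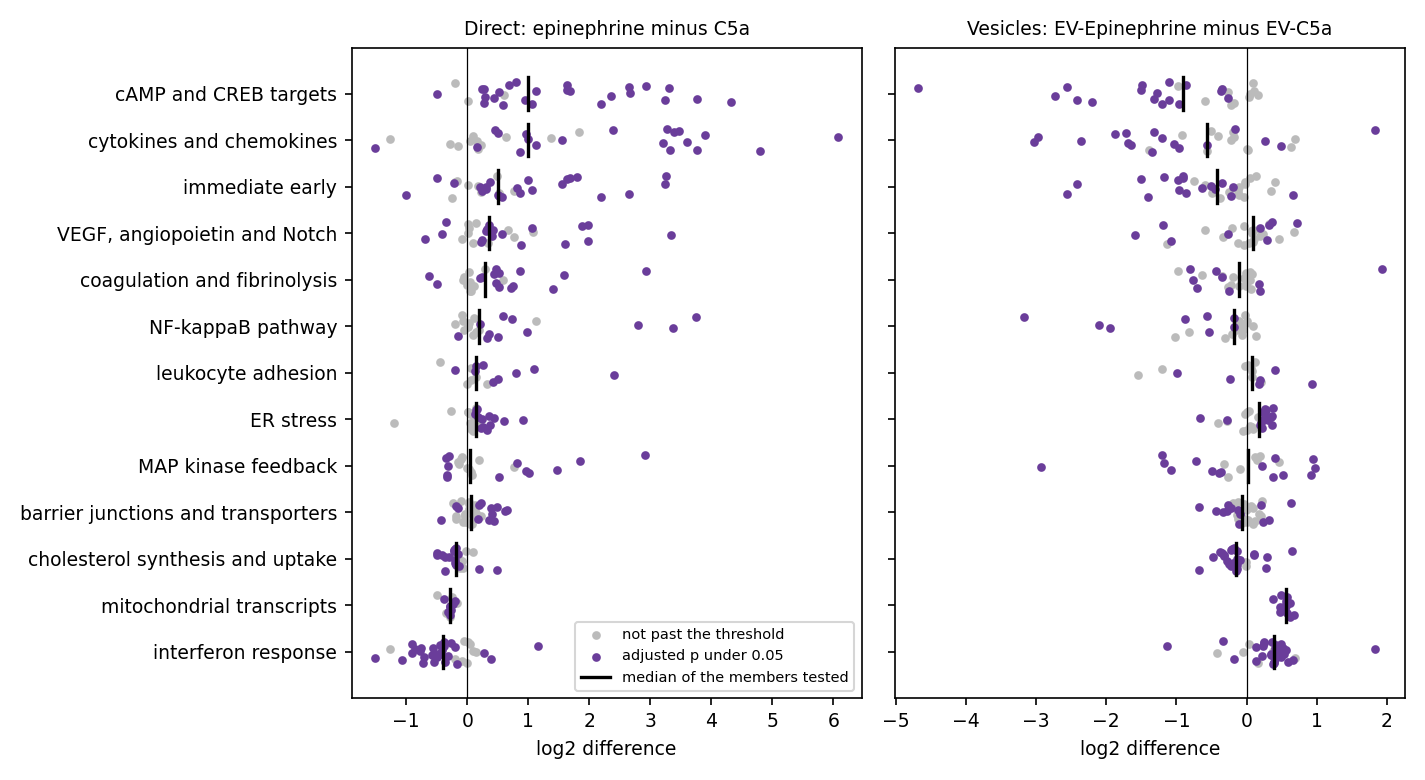
Log2 differences of the tested members of 13 gene lists, for Epinephrine minus C5a (left) and EV-Epinephrine minus EV-C5a (right). Points are genes, purple where the adjusted p is under 0.05, and black bars are list medians. The cyclic AMP and cytokine lists lie to the right of 0 on the left panel, with medians of 1.00 and 0.99, and to the left of 0 on the right panel, with medians of -0.91 and -0.57; the interferon list does the reverse.

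The same 2 agents were also compared through the vesicles of the cells that had received them. EV-Epinephrine against EV-C5a shares no library with the direct comparison and called 2730 of 15918 genes (17.2%), 1315 higher (8.26%) and 1415 lower (8.89%), nearly as many as the direct comparison. With total counts for scaling, 58.2% of these calls were higher against 48.2%. The background for the vesicle lists below is 8.26% higher and 8.89% lower. The direction was often opposite. Of 15450 genes tested in both, 963 passed in both, which is 35.8% of the direct calls and 35.7% of the vesicle calls, and 768 of these had opposite signs against 195 with the same sign. Across the 15450 genes, which are not independent replicates, Spearman's rho between the 2 sets of log2 differences was -0.21.

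Of the 28 cyclic AMP and CREB targets, 17 were lower and 0 higher in EV-Epinephrine than in EV-C5a, with a median of -0.91. NR4A2 was at 296, 251 and 282 CPM in EV-C5a and 54.9, 63.4 and 61.5 in EV-Epinephrine, NR4A1 at 381, 355 and 357 and 141, 155 and 156. EV-Control stood at 376, 339 and 303 CPM for NR4A2 and at 451, 460 and 357 for NR4A1. Between the vesicle groups the C5a side thus held more of both transcripts, whereas between the direct groups it held less. The difference of the 2 differences was -6.52 ± 0.23 in log2 for NR4A2 (adjusted p = 2.85e-15, edgeR, all 30 libraries in 1 fit). Over all genes, 3381 of 16691 had such a difference (20.3%), of which 49.5% were positive, or 60.1% with total counts for scaling, and 24 of these targets did.

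Cytokines and interferon-stimulated genes also changed sides. Of 29 cytokine genes tested, 14 were lower and 3 higher in EV-Epinephrine, and of 36 interferon genes 27 were higher and 3 lower. IL6 stood at 131, 112 and 98.4 CPM in EV-C5a and 47.9, 51.6 and 48.9 in EV-Epinephrine, and NFKBIA at 642, 703 and 719 and 161, 165 and 155. MX1 stood at 609, 555 and 573 CPM in EV-C5a and 827, 817 and 787 in EV-Epinephrine. EV-Control stood at 126, 136 and 143 CPM for IL6, 715, 655 and 536 for NFKBIA and 637, 606 and 622 for MX1. For each of these genes EV-C5a overlapped EV-Control, while EV-Epinephrine did not. For IL6, NFKBIA and MX1 the vesicle minus direct differences were -4.60, -4.91 and 1.39 in log2, with adjusted p = 1.77e-12, 1.39e-15 and 1.75e-07 (edgeR).

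Not every gene reversed. Of 26 ER stress genes, 13 were higher and 2 lower in the vesicle groups. The chaperone HSPA5 differed by 0.37 there against 0.37 directly, a gap of -0.01 ± 0.052 (adjusted p = 0.952, edgeR). The 2 lower ones, XBP1 and the co-chaperone gene DNAJB9, had been higher directly and reversed, from 0.92 to -0.28 and from 0.44 to -0.67. Cholesterol genes were mostly lower in both, with 19 of 28 lower and 5 higher through vesicles. C5AR1 was higher in EV-Epinephrine than in EV-C5a, at 6.43, 6.8 and 6.4 against 4.3, 4.17 and 4.12 CPM, in the direction of the direct groups. FAT1, a giant cadherin, was at 2.34, 3.04 and 2.34 CPM in EV-C5a and 17.4, 16.9 and 15.8 in EV-Epinephrine, a log2 difference of 2.70 ± 0.16, while in the direct groups it was near 1 to 2 CPM with a value of 0.28 ± 0.36 that did not pass. DSP, desmoplakin of desmosomes, differed likewise, by 1.93 ± 0.096 through vesicles and 0.16 ± 0.2 directly.

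**Figure D5:**
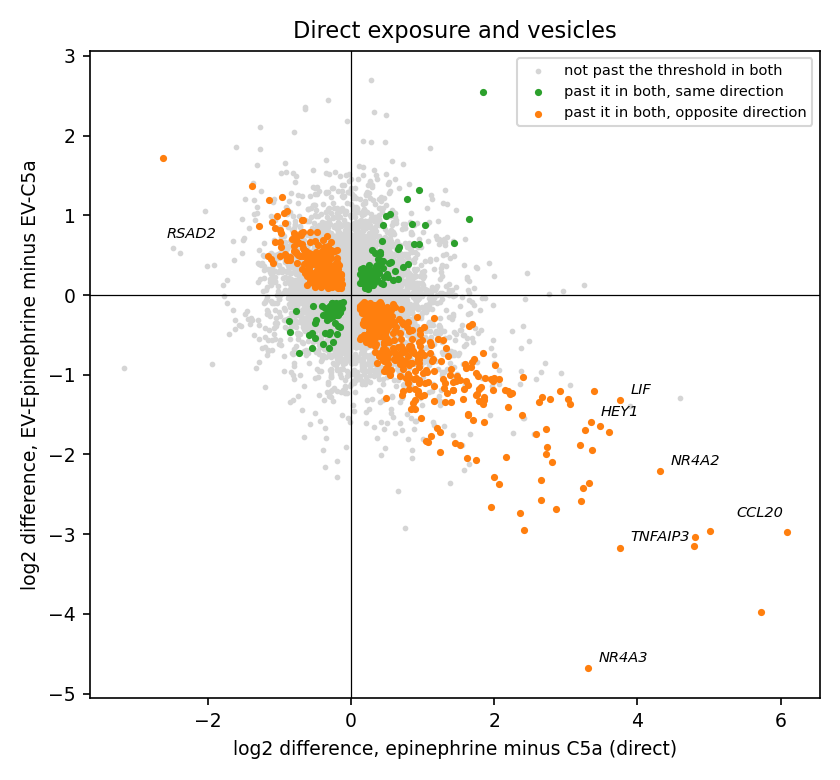
Log2 difference of Epinephrine minus C5a (x axis) against that of EV-Epinephrine minus EV-C5a (y axis) for 15450 genes. Orange marks the 768 genes past the threshold in both comparisons with opposite signs and green the 195 with the same sign. The orange points run from upper left, where RSAD2 lies, to lower right, where CCL20, NR4A2 and NR4A3 lie.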

How the data were processed

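RNA sequencing was done on 30 libraries of hCMEC/D3 cells in 10 groups of 3, all given the same batch in the labels. The authors deposited 1 table of counts by Ensembl identifier, without normalization. The submitters' processing notes name FastQC, STAR, DESeq2, R 4.4.1 and the build hg38; the counting program, annotation release and use of strand are not given in the sources used here. Of 63147 lines, 4 without a gene identifier (0.00079% to 0.0016% of a library) and 2 broken records, TTN and ANK2, were left out, and 3 duplicated identifiers were kept once. Gene positions are those of GENCODE 29 on GRCh38, and promoters are RefSeq sequences of GRCh38.p14.

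Counts were analysed with edgeR 4.0.16 in R 4.3.3: filterByExpr at default settings, trimmed mean of M-values, and the robust quasi-likelihood test, two-sided, with Benjamini-Hochberg adjustment over all genes of a comparison and a threshold of 0.05. The direct comparisons came from 1 fit of the 15 direct libraries (15908 genes), the vesicle comparison from the 15 vesicle libraries (15918), and the difference between them from all 30 (16691). Samples within a group are not stated to be separate cultures, so p-values measure the spread between these libraries, which may be technical. The edgeR fit was checked on simulated counts. The precision of a level is set by these totals; no molecular identifiers are described, so counts are not independent molecules.

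The comparison, the gene lists and the naming rule were chosen with earlier results of these data known. Named were the 12 genes most raised and most lowered in Epinephrine against C5a (symbol, adjusted p under 0.05, 5 CPM or more on the higher side, no overlap), the 4 and 4 of the vesicle comparison, the 3 and 3 of the difference, up to 4 called members of each list in each direction with at least 1 CPM, and a fixed set of receptors, activation and barrier genes. As alternatives, scaling used relative log expression or total counts, the filter was dropped or set to a mean of 50, the test was DESeq2 1.42.0 or also required a log2 difference over 1, and the model had the replicate number as a block, only the groups compared, all 30 libraries, or 1 library fewer. The main fits did not use the replicate numbers to pair libraries across groups. Marker lists gave these counts of tested members higher and lower: endothelial 6 and 1 of 13, pericyte and smooth muscle 1 and 1 of 6, astrocyte 0 and 0 of 1, leukocyte 0 and 0 of 3, neuron 0 and 0 of 4, epithelial 0 and 1 of 3. Some genes that the rule names are not reported here.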

Additional observations from a re-analysis of the deposited data

Results flagged for a closer look

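The difference between Epinephrine and C5a was set against the difference between EV-Epinephrine and EV-C5a. The test was the interaction term of edgeR's quasi-likelihood fit to all 30 libraries. The term passed an adjusted p of 0.05 for 3381 of 16691 genes. Values below are the vesicle difference minus the direct difference in log2. A negative value means that the difference was lower between the vesicle groups than between the direct groups. Genes named for a large direct difference tend to give a value of the opposite sign by that choice alone, so the signs below are a description. No explanation of these differences was tested.

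The 12 genes most raised in the direct comparison gave negative values. Of these 12, only CSF3 had a difference between the vesicle groups that did not pass the test, at -1.39 (adjusted p = 0.118, edgeR). For the chemokines the value was -9.05 for CCL20, -7.83 for CXCL3, -5.32 for CXCL2 and -5.11 for CXCL8. The cytokines IL6, LIF and CSF3 gave -4.60, -5.08 and -5.28. For the regulators of NF-kappaB it was -6.92 for TNFAIP3, -5.31 for NFKBIZ and -4.91 for NFKBIA, the last of which was not among the 12. C11orf96 gave -7.94, NR4A2 -6.52 and HEY1 -4.94. Other CREB targets and activation genes were also negative, with -8.00 for NR4A3, -3.95 for NR4A1, -3.39 for SIK1, -2.22 for CCL2, -2.30 for VCAM1 and -1.79 for ICAM1.

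The values of 11 of the 12 genes most lowered, given here, were positive. The vesicle differences of MMP24, RIPOR3 and ZNF658, at -0.09, -0.19 and 0.16, did not pass the test. The value was 1.65 for CMPK2 and 1.73 for RSAD2, both induced by interferon, 1.58 for BMP4 and 1.47 for TAGLN. MMP24 gave 1.12, JPH2 1.5, RIPOR3 0.88 and IER5L 1.66. The zinc finger genes ZNF658, ZKSCAN4 and ZNF530 gave 1.22, 1.91 and 1.80. Genes named by the size of the term itself were ZNF792 at 2.75, FAT1 at 2.42 and MIRLET7A1HG at 2.11, and DSP from the vesicle comparison stood at 1.77. Small positive values were found for ADRA1B at 0.47, TJP1 at 0.25 and CDH5 at 0.24.

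By list, 24 of 28 tested cyclic AMP and CREB targets passed, 23 of 32 immediate early genes and 23 of 31 cytokines and chemokines. The interferon genes had 32 of 36 and the NF-kappaB genes 13 of 23. Counts were 17 of 22 for MAP kinase feedback, 16 of 35 for the barrier and 14 of 28 for VEGF and Notch. Coagulation had 16 of 25, matrix 20 of 33, cholesterol 10 of 28 and ATF4 11 of 32. The cell cycle had 10 of 36, glucose and fuel use 10 of 29 and the mitochondrial transcripts 13 of 13. Lists with fewer than 10 such members are not given here. The background was 20.3% of genes.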

How the results depend on the processing

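The 5 counts of called genes stayed within 1.5 times under every alternative but 1, which also required a log2 difference over 1. They were then 316 for Epinephrine against C5a, 313 for Epinephrine against Control and 330 for C5a against Control. For EV-Epinephrine against EV-C5a the count was 310, and for the vesicle minus direct difference it was 770. Leaving out 1 library gave 2004 to 2939 calls for Epinephrine against C5a, 3004 to 4440 for Epinephrine against Control, 2742 to 3068 for C5a against Control, 2023 to 2222 for the vesicle comparison and 2870 to 3712 for the difference. With only the 2 groups in the fit, Epinephrine against C5a called 1846 genes, 1838 of them among the 2714. The fit of the vesicle minus direct difference already used all 30 libraries, so that setting gave no separate value for it. Same-numbered Epinephrine and C5a libraries did not deviate together (correlations of -0.016, 0.023 and 0.042), and Epinephrine 1 correlated best with another number. Replicate number as a block gave 2660, 3914, 3503, 2671 and 3327 calls in the order above. Of 153 named genes, 1 lost its call under the block, 17 with only the groups compared, 4 to 18 when 1 library was left out, and 0 with DESeq2, relative log expression or total counts. FAT1, which did not pass, went from 0.28 to -0.021 without Epinephrine replicate 1 and to 0.441 without Epinephrine replicate 2; the cause was not tested. Low counts limit CCL20, PTGS2, EGR3 and CXCL11, whose fold sizes are imprecise, and C5AR2 could not be tested at this depth.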

Other observations

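Genes whose symbol begins with ZNF, which mostly encode zinc finger transcription factors, were grouped after their values had been seen. Of 482 tested, 98 were lower in epinephrine cells than in C5a cells and 9 higher, against 8.08% and 8.98% of all genes, with a median log2 difference of -0.21. The median was 0.30 for C5a minus Control and 0.09 for Epinephrine minus Control, comparisons that share the Control libraries. The counts were 83 lower and 10 higher without Epinephrine replicate 2, and 111 lower and 9 higher with libraries scaled by total counts. In the vesicle comparison the direction was the other way, with 60 of 474 higher, 14 lower and a median of 0.14. Cytosolic ribosomal protein genes, grouped in the same way, had 2 of 78 higher and 0 lower with a median of 0.06, and 1 higher and 5 lower without Epinephrine replicate 2.

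A gene without a symbol in the deposited table, ENSG00000225886 (chr1:27669468-27703063), which GENCODE 29 places antisense to the interferon-induced gene IFI6, was chosen after its values were seen. It stood at 6.97, 5.84 and 5.95 CPM in C5a and 1.04, 0.835 and 1.13 in Epinephrine, with no overlap, and differed by -2.62 in log2 (adjusted p = 6.99e-12, edgeR). IFI6 itself differed by -0.20 and did not pass the test. The use of strand in counting is not stated, so reads from this gene and from IFI6 cannot be told apart.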
